A study of Mus musculus with 18 samples.

Results

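The genes described here encode the protein lattice under excitatory synapses and the actin apparatus of the dendritic spines that carry them. They were given as a list of 36 symbols: the Dlg, Dlgap, Shank, Magi and Homer scaffolds (Homer1 is not among them), regulators of small GTPases in spines, actin binders, and the neuronal proteins of Gprin1 and Nrgn. All 36 were found among the 24015 rows of each table, and 36 of 36 passed the authors' filter on low counts in each of the 3 tables.

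At a glutamatergic synapse, PSD-95 and its relatives hold glutamate receptors at the membrane, the guanylate kinase-associated proteins tie them to Shank, and Shank with Homer reaches inward to the actin of the spine. Small GTPases such as Rac, Rap and Arf, switched by exchange factors and GTPase-activating proteins, set how much actin is polymerised and so the shape of the spine. In dentate granule neurons, whose input from the entorhinal cortex lands on densely spined dendrites, this machinery is abundant and is a known substrate of plasticity.

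RNA was sequenced from the microdissected dentate gyrus of C57BL/6 mice aged 8 weeks, 3 libraries for each of 6 groups and, per the labels' protocols, each library from an individual animal. The groups were shRNA-cFos_E1 and shRNA-cFos_E0, which carried a short hairpin RNA named for c-Fos, shRNA-Ctrl_E1 and shRNA-Ctrl_E0, which carried a control hairpin, cFos_OE, which overexpressed the transcription factor c-Fos, and EYFP_OE, which overexpressed a yellow fluorescent protein. Series and table names speak of neuronal activation and set E1 against a sham state, so E0 is read as the unstimulated condition; the stimulus, the vector, its promoter and the cells it reached were stated nowhere in the material used. Only the authors' 3 tables of comparisons were used, so no value of a single animal can be shown, no animal could be left out, and sequencing depth is unknown.

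As a check of the labels, the log2 fold change of Fos was 2.33 ± 0.15 (standard error) at E1 with shRNA-cFos and 3.36 ± 0.14 with shRNA-Ctrl in the authors' deposited tables, and at 3.34 ± 0.20 with overexpression in the authors' deposited table. Its response at E1 was lower with shRNA-cFos by 1.03 ± 0.20, a difference that passed (normal approximation, Benjamini-Hochberg adjusted p = 1.1e-05). Fos levels were also set across the hairpins after the shift described further on, without an error. The log2 ratio of shRNA-cFos over shRNA-Ctrl was then -0.66 at E1 and 0.37 at E0. Before the shift, the E0 levels of Fos were estimated at 170 normalized counts with shRNA-cFos and 178 with shRNA-Ctrl, so the sign at E0 rests on the shift. Whether Fos differed between the hairpins at E0 was not tested. The deposited fold changes are shrunken toward 0, which matters most for large and variable changes: without that shrinkage Fos stood at 6.02 in cFos_OE, computed from the authors' deposited table. All 6 dentate granule neuron markers examined were tested in every table, but so were all markers of the other cell types, so this does not check the tissue. The mean normalized counts of the 36 genes, which are counts divided by library size factors, lay between 842 and 19568 for shRNA-cFos, 1043 and 27217 for shRNA-Ctrl, and 929 and 20561 for overexpression in the authors' deposited tables. Each gene thus stood above at least 70.4% of tested genes in its table, and the standard errors of their fold changes were between 0.055 and 0.19 in the authors' deposited tables. Tissue RNA was measured, so fewer cells of a type and less RNA per cell cannot be told apart in any result below.

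Promoter windows of RefSeq (GRCm38.p6) were matched by symbol for 29 of the 36 genes, 52 windows in all, and the 250 bases before each transcription start were searched on both strands. The sequences below are those of genes on which the results turn: Sipa1l2 and Shank3, whose calls at E1 pointed in opposite directions under the hairpins and whose windows held the matches to activity-linked motifs, Baiap2, which rose under both hairpins, and Gprin1, which fell under both. The Sipa1l2 windows are chr8:125569864-125570113 and chr8:125492834-125493083 on the minus strand, that of Gprin1 is chr13:54749875-54750124 on the minus strand, and those of Shank3 and Baiap2 are chr15:89499358-89499607 and chr11:119942842-119943091 on the plus strand. Capitals mark matches on either strand to the AP-1 pattern TGANTCA, where N is any base, and the cyclic AMP response element TGACGTCA. They also mark the EGR site GCGTGGGCG and the GC box GGGCGG, and the last bases of an EGR site can be the first of a GC box.
Sipa1l2, first window: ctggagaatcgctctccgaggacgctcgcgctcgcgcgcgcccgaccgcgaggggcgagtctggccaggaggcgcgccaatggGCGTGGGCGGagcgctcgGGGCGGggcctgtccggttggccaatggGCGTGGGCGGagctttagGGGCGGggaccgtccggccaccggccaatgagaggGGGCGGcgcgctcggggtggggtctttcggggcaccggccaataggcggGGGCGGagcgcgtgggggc
Sipa1l2, second window: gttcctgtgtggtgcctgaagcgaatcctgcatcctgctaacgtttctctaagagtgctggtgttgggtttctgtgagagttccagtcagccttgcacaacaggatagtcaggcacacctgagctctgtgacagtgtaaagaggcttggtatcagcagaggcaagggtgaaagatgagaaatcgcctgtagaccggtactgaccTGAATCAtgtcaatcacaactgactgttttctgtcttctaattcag
Shank3: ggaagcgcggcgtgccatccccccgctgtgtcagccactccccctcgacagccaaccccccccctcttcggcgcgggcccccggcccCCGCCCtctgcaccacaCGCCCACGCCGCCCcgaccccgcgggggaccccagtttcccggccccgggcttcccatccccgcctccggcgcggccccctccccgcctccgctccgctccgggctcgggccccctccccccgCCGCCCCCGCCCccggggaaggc
Baiap2: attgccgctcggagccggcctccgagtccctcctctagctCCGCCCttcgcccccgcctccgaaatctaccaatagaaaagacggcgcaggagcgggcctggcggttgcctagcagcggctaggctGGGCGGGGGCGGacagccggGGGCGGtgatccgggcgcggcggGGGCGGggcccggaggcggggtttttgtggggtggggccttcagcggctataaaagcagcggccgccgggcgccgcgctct
Gprin1: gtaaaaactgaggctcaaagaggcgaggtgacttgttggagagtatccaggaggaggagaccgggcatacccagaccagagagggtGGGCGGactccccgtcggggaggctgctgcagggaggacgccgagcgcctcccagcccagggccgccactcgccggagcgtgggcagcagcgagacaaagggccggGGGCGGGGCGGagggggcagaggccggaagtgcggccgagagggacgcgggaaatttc
The pattern TGANTCA allows any base at the centre of the AP-1 site, which c-Fos binds together with a Jun partner. It was found in 1 of the 52 windows, against 6.75% of all 32851 promoter windows. That match, in the second window of Sipa1l2, reads TGAATCA, and whether c-Fos binds it was not tested. The EGR site stood in 2 of the 52, Sipa1l2 (first window) and Shank3, against 0.536% of all windows, and the cyclic AMP response element in 0 of 52, against 1.55%. GC boxes stood in 30 of the 52 windows, against 32.7% of all. Several windows belong to the same gene, and a match of letters is a description of the sequence alone. The 7 genes not printed or searched are Shank1, Shank2, Synpo, Enc1, Arhgap39, Dlgap2 and Psd3.

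Per kilobase of exon, with exon lengths from GENCODE M21, the levels covered a wide range. Nrgn, the calmodulin-binding neurogranin, led with a mean normalized count of 18041 per kilobase over the shRNA-Ctrl libraries, computed from the authors' deposited table. The actin-binding kelch protein gene Enc1 followed at 5746 per kilobase, Ppp1r9b (spinophilin) at 4423 and Dbn1 (drebrin) at 2945, computed from the authors' deposited table. Lowest were Homer2 at 93.4, Magi1 at 192 and Dlg1 at 262 per kilobase, computed from the authors' deposited table. The values carry no error, and the exon lengths come from a later annotation than the authors' build mm9.

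Under the c-Fos hairpin, the genes of the postsynaptic lattice were mostly higher at E1 than at E0. Of the 36 genes, 23 rose and 2 fell at an adjusted p under 0.05 in the shRNA-cFos part of the authors' deposited tables, with a median log2 fold change of 0.29. Over all 14388 tested genes 28.1% were called, 16.3% higher and 11.7% lower, with a median of -0.0031. Abundant genes as a whole leaned upward in this comparison: among the 4427 genes with a mean normalized count of at least 800, a minimum chosen after the data were seen, 34.2% were called higher and 7.59% lower, with a median of 0.11. Measured from that median, 16 of the 36 were higher and 4 lower: Dlgap1, Dlgap2, Dlgap4, Kalrn, Iqsec3, Cnksr2 and Ppp1r9a no longer passed, and Homer2 and Dbn1 passed as lower. At a fold of at least 1.5, 4 genes were higher and 0 lower (Sipa1l3, Synpo, Baiap2 and Enc1), against 4.04% and 3.45% of all tested genes.

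With the control hairpin the balance lay the other way. With shRNA-Ctrl, 3 of the 36 genes were higher and 21 lower by the authors' deposited table, and the median log2 fold change was -0.21. Over all 15675 tested genes 33.0% were called, 16.8% higher and 16.2% lower, with a median of 0.0071, and among the 5486 genes with a mean normalized count of at least 800 the shares were 20.9% and 19.8%. Most of the falls were modest: 3 of the 21 reached a fold of 1.5 (Kalrn, Arhgap39 and Gprin1), against 4.08% of all tested genes, and 2 of the 3 rises did (Synpo and Baiap2), against 6.51%. At an adjusted p under 0.01 the number lower was 13.

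**Figure D1:**
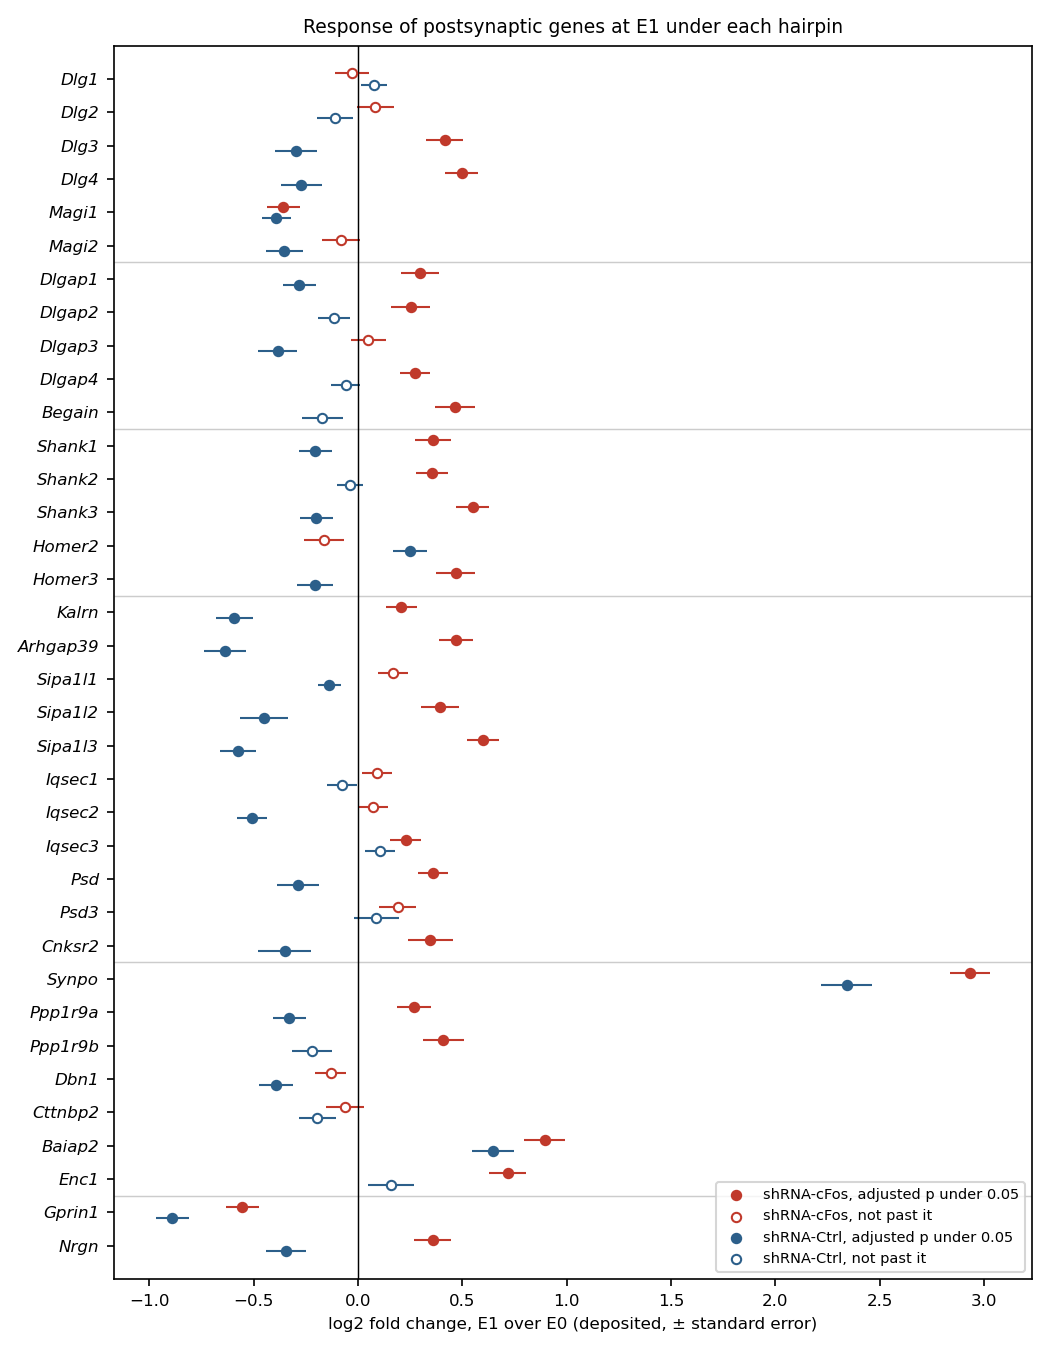
Deposited log2 fold change at E1 over E0 (x axis, ± standard error) for each of the 36 genes (y axis, grouped by role), with shRNA-cFos in red above shRNA-Ctrl in blue. Filled points passed an adjusted p under 0.05 in the authors' deposited tables; most red points lie right of 0 and most blue points left of it, while Synpo and Baiap2 lie right and Magi1 and Gprin1 left under both hairpins.

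Joining the calls of the 2 tables, which share no library, 14 genes rose with shRNA-cFos and fell with shRNA-Ctrl: Dlg3, Dlg4, Dlgap1, Shank1, Shank3, Homer3, Kalrn, Arhgap39, Sipa1l2, Sipa1l3, Psd, Cnksr2, Ppp1r9a and Nrgn. This pattern was shown by 2.11% of the 14386 genes tested in both. Its share among genes with a mean of at least 800 was not computed. Centred on the median of those abundant genes, Dlgap1, Kalrn, Cnksr2 and Ppp1r9a lost the rise with shRNA-cFos. Shank3 and Homer3 lost the fall with shRNA-Ctrl in the same setting. At an adjusted p under 0.01, Dlg3, Dlg4, Shank1, Shank3, Homer3, Psd and Cnksr2 lost the fall with shRNA-Ctrl, and Kalrn lost the rise with shRNA-cFos. Only Arhgap39, Sipa1l2, Sipa1l3 and Nrgn kept the opposite calls in both of these settings. In both tables Synpo and Baiap2 rose, as did 6.16% of those genes, and Magi1 and Gprin1 fell, as did 4.21%. A further 7 genes rose with shRNA-cFos and did not pass with shRNA-Ctrl, 5 fell with shRNA-Ctrl and did not pass with shRNA-cFos, Homer2 rose with shRNA-Ctrl and did not pass with shRNA-cFos, and 5 passed in neither.

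Whether the response itself depended on the hairpin was tested on the log2 fold change with shRNA-cFos minus that with shRNA-Ctrl. Of the 36 genes, 25 had a higher response with shRNA-cFos and 1, Homer2, a lower one (normal approximation, Benjamini-Hochberg adjusted p under 0.05 over 14386 genes), and the median of the differences, from the authors' deposited tables, was 0.56. Over all those genes 23.8% were called, 12.9% higher and 11.0% lower, with a median of 0.0098, and among the 4427 whose means reached 800 under both hairpins 25.8% and 8.61%, with a median of 0.10. Measured from that last median, 21 were higher and 1 lower, and Dlgap2, Dlgap4, Sipa1l1 and Gprin1 no longer passed. At a fold of at least 1.5, 15 were higher and 0 lower, against 5.17% and 6.7% of those genes.

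**Figure D2:**
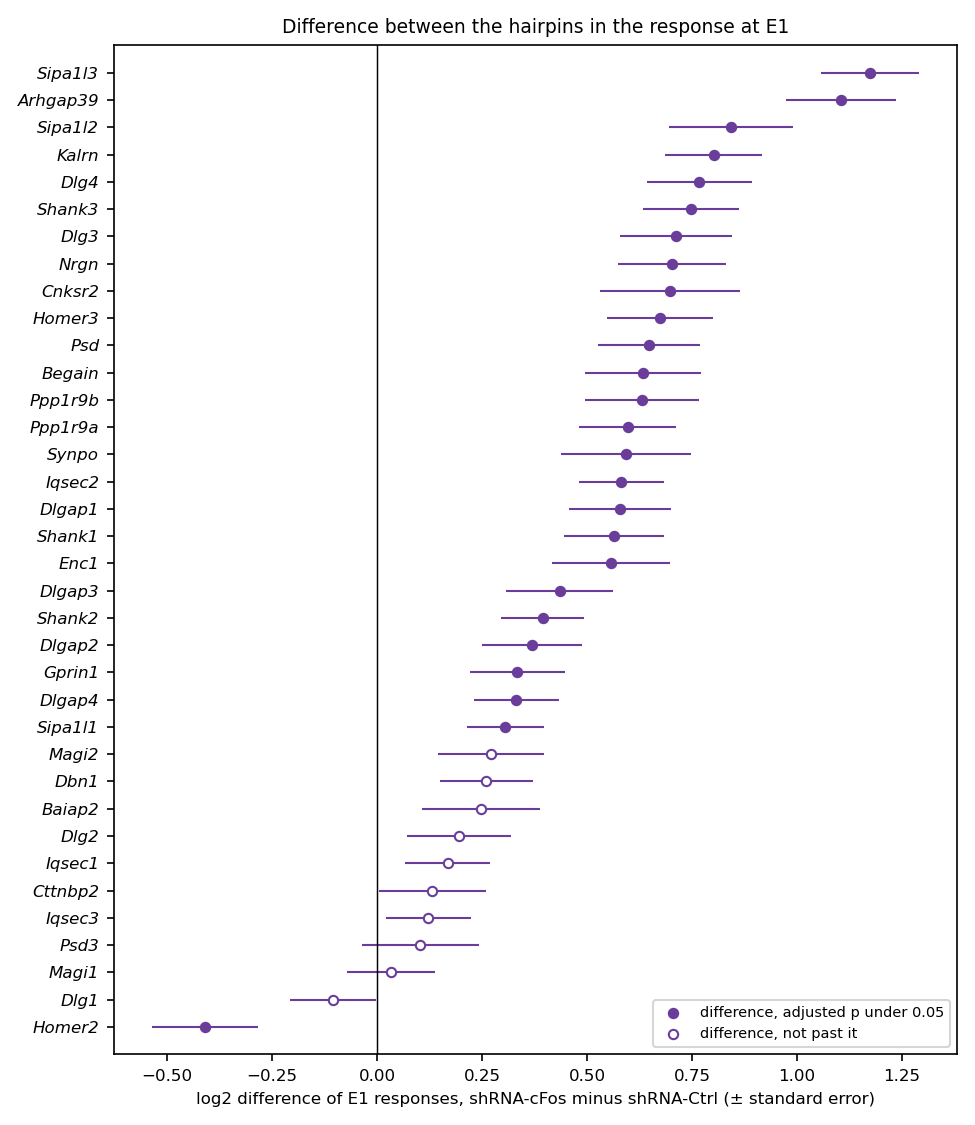
Difference of the E1 responses, shRNA-cFos minus shRNA-Ctrl, on the log2 scale (x axis, ± standard error) for the 36 genes in order of size (y axis), from the authors' deposited tables. Of the filled points, which passed an adjusted p under 0.05, 25 lie right of 0, led by Sipa1l3 and Arhgap39, and Homer2 lies left of it.

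Among the membrane-associated guanylate kinases, Dlg4 encodes PSD-95, the most studied scaffold of the excitatory synapse. Levels here and below were normalized separately for each hairpin. They can be compared within a hairpin, and between hairpins only after the shift described further on. The group levels estimated for Dlg4 were 13434 normalized counts at E1 and 9453 at E0 with shRNA-cFos, against 13786 at E1 and 16727 at E0 with shRNA-Ctrl, from the authors' deposited tables. Its log2 fold change was 0.50 ± 0.08 with shRNA-cFos (DESeq2 adjusted p = 4.4e-09) and -0.27 ± 0.10 with shRNA-Ctrl (DESeq2 adjusted p = 0.021) in the authors' deposited tables. Within each table the E1 and E0 levels were thus apart in opposite directions, by more than the standard error. Dlg3, which encodes SAP102, did the same, at 0.42 ± 0.09 with shRNA-cFos and -0.30 ± 0.10 with shRNA-Ctrl in the authors' deposited tables.

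The other kinase-like scaffolds did not share this. Dlg1 (SAP97) stood at -0.028 ± 0.08 with shRNA-cFos and 0.077 ± 0.06 with shRNA-Ctrl in the authors' deposited tables, and Dlg2 (PSD-93) at 0.083 ± 0.09 and -0.11 ± 0.09. Neither gene passed in either table. Magi1, an inverted member of the family, fell under both hairpins, by 0.36 ± 0.08 with shRNA-cFos and by 0.39 ± 0.07 with shRNA-Ctrl on the log2 scale in the authors' deposited tables; the difference of 0.034 ± 0.11 did not pass. For Magi2, also called S-SCAM, the values were -0.082 ± 0.09 with shRNA-cFos, which did not pass, and -0.35 ± 0.09 with shRNA-Ctrl, which did, in the authors' deposited tables. Its difference, computed from the authors' deposited tables, was 0.27 ± 0.13 and did not pass (Benjamini-Hochberg adjusted p = 0.11), so a call in 1 table and not in the other does not set the hairpins apart for this gene.

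Proteins that bind the guanylate kinase domain link PSD-95 to Shank. All 5 of their genes responded more highly with shRNA-cFos than with shRNA-Ctrl, by 0.33 to 0.63 on the log2 scale by the authors' deposited tables, and 3 of the 5 when measured from the median of abundant genes, without Dlgap2 and Dlgap4. Begain had the largest difference in this group. It stood at 0.46 ± 0.10 with shRNA-cFos and -0.17 ± 0.10 with shRNA-Ctrl in the authors' deposited tables, and the second value did not pass. Dlgap1, the founding GKAP gene, rose by 0.30 ± 0.09 with shRNA-cFos and fell by 0.28 ± 0.08 with shRNA-Ctrl on that scale in the authors' deposited tables. Dlgap3, whose loss in mice is known for compulsive grooming, stood at 0.050 ± 0.08 with shRNA-cFos and -0.38 ± 0.09 with shRNA-Ctrl in the authors' deposited tables, so only the second value passed. Dlgap2 (0.25 ± 0.09) and Dlgap4 (0.27 ± 0.07) rose with shRNA-cFos in the authors' deposited table, while neither passed with shRNA-Ctrl (-0.12 and -0.058).

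Shank proteins form the deeper layer of the density. Shank3, estimated from the authors' deposited tables at 4437 normalized counts at E1 and 3004 at E0 with shRNA-cFos, stood at 5175 at E1 and 5956 at E0 with shRNA-Ctrl. Its log2 fold changes were 0.55 ± 0.08 with shRNA-cFos (DESeq2 adjusted p = 2.9e-10) and -0.20 ± 0.08 with shRNA-Ctrl (DESeq2 adjusted p = 0.045) in the authors' deposited tables. The fall is close to the threshold: with no filter on low counts its adjusted p (Benjamini-Hochberg) was 0.056. Shank1 rose by 0.36 ± 0.09 with shRNA-cFos and fell by 0.20 ± 0.08 with shRNA-Ctrl on the log2 scale in the authors' deposited tables. Shank2 rose by 0.35 ± 0.08 with shRNA-cFos in the authors' deposited table, and its value of -0.040 ± 0.06 with shRNA-Ctrl did not pass.

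The long Homer proteins bridge Shank and metabotropic glutamate receptors. Their 2 genes here moved apart. Homer3 had estimated levels of 982 normalized counts at E1 and 702 at E0 with shRNA-cFos, against 1001 at E1 and 1158 at E0 with shRNA-Ctrl, from the authors' deposited tables. Homer2 had 814 at E1 and 914 at E0 with shRNA-cFos, against 1134 at E1 and 951 at E0 with shRNA-Ctrl, estimated likewise from the authors' deposited tables. The difference of the responses was 0.67 ± 0.13 for Homer3 and -0.41 ± 0.13 for Homer2, computed from the authors' deposited tables, and both passed. Homer2 was the 1 gene of the 36 called with a lower response under the c-Fos hairpin. Homer3's fall with shRNA-Ctrl (-0.20 ± 0.09 in the authors' deposited table) did not pass without the filter on low counts (Benjamini-Hochberg adjusted p = 0.062).

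GTPase regulators held the largest differences between the hairpins. Of these 11 genes, 7 rose with shRNA-cFos and 8 fell with shRNA-Ctrl in the authors' deposited tables, and 8 had a higher response with shRNA-cFos. Sipa1l3 belongs to the SPAR family, whose members inactivate Rap. Its estimated levels were 3143 normalized counts at E1 and 2055 at E0 with shRNA-cFos, against 3151 at E1 and 4734 at E0 with shRNA-Ctrl, from the authors' deposited tables. The difference of its responses was 1.17 ± 0.12 (normal approximation, Benjamini-Hochberg adjusted p = 4.1e-20), computed from the authors' deposited tables. Its paralog Sipa1l2 differed by 0.84 ± 0.15 and Sipa1l1, the SPAR gene itself, by 0.31 ± 0.09, computed from the authors' deposited tables. Both passed; Sipa1l1 stood at 0.17 ± 0.07 with shRNA-cFos, which did not pass, and -0.14 ± 0.06 with shRNA-Ctrl, which did, in the authors' deposited tables. Without the filter on low counts that fall of Sipa1l1 did not pass (Benjamini-Hochberg adjusted p = 0.053).

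Arhgap39, a GTPase-activating protein, had estimated levels of 2206 normalized counts at E1 and 1583 at E0 with shRNA-cFos, against 2164 at E1 and 3414 at E0 with shRNA-Ctrl, from the authors' deposited tables. Its responses differed by 1.10 ± 0.13, computed from the authors' deposited tables. Kalrn encodes kalirin, a Rac exchange factor that enlarges spines. It was estimated at 8110 normalized counts at E1 and 6999 at E0 with shRNA-cFos, against 8974 at E1 and 13668 at E0 with shRNA-Ctrl, from the authors' deposited tables. For Arhgap39, Kalrn and Sipa1l3, the E0 levels of the tables stood further apart than the E1 levels, also after the shift given below.

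Arf exchange factors were divided. Psd, which activates Arf6, rose by 0.36 ± 0.07 with shRNA-cFos and fell by 0.29 ± 0.10 with shRNA-Ctrl on the log2 scale in the authors' deposited tables. Iqsec2, an Arf exchange factor mutated in human intellectual disability, stood at 0.074 ± 0.07 with shRNA-cFos, which did not pass, and fell by 0.51 ± 0.07 with shRNA-Ctrl in the authors' deposited tables. Differences from the authors' deposited tables were 0.17 ± 0.10 for Iqsec1, 0.12 ± 0.10 for Iqsec3 and 0.10 ± 0.14 for Psd3, and none of the 3 passed. Iqsec3, known from inhibitory synapses, rose by 0.23 ± 0.07 with shRNA-cFos in the authors' deposited table. Cnksr2, a scaffold of Ras signalling at the density, rose by 0.35 ± 0.11 with shRNA-cFos and fell by 0.35 ± 0.13 with shRNA-Ctrl on the log2 scale in the authors' deposited tables.

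Synpo had the largest response of the 36 genes. It encodes synaptopodin, the actin-associated protein of the spine apparatus. Its estimated levels were 17947 normalized counts at E1 and 2186 at E0 with shRNA-cFos, against 25920 at E1 and 4734 at E0 with shRNA-Ctrl, from the authors' deposited tables. E1 was thus many times E0 in both tables, 7.64-fold with shRNA-cFos and 5.07-fold with shRNA-Ctrl by the fold changes of the authors' deposited tables. The difference of these responses, 0.59 ± 0.16, passed (normal approximation, Benjamini-Hochberg adjusted p = 0.0015), computed from the authors' deposited tables. Baiap2, which encodes the membrane-bending adaptor IRSp53, also rose in both, 1.86-fold with shRNA-cFos and 1.56-fold with shRNA-Ctrl in the authors' deposited tables; its difference of 0.25 ± 0.14 did not pass.

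Enc1 had estimated levels of 24459 normalized counts at E1 and 14678 at E0 with shRNA-cFos, against 28774 at E1 and 25660 at E0 with shRNA-Ctrl, from the authors' deposited tables. It rose by 0.72 ± 0.09 on the log2 scale with shRNA-cFos in the authors' deposited table, and its value of 0.16 ± 0.11 with shRNA-Ctrl did not pass. Ppp1r9a and Ppp1r9b encode neurabin and spinophilin, which bring protein phosphatase 1 to actin. Their responses differed by 0.60 ± 0.12 and 0.63 ± 0.14, computed from the authors' deposited tables. Dbn1 encodes drebrin, which decorates spine actin, and Cttnbp2 a binding partner of cortactin. Their differences from the authors' deposited tables were 0.26 ± 0.11 for Dbn1 and 0.13 ± 0.13 for Cttnbp2, neither of which passed, and Dbn1 fell by 0.39 ± 0.08 with shRNA-Ctrl in the authors' deposited table.

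Gprin1, a membrane protein of neurite outgrowth that binds G proteins, had the steepest fall. Its levels were estimated at 2328 normalized counts at E1 and 3449 at E0 with shRNA-cFos, against 2903 at E1 and 5440 at E0 with shRNA-Ctrl, from the authors' deposited tables. The fall of 0.55 ± 0.08 on the log2 scale with shRNA-cFos was smaller than that of 0.89 ± 0.08 with shRNA-Ctrl in the authors' deposited tables, and the difference of 0.33 ± 0.11 passed. Nrgn was estimated at 20626 normalized counts at E1 and 15975 at E0 with shRNA-cFos, against 23017 at E1 and 29409 at E0 with shRNA-Ctrl, from the authors' deposited tables. Its responses, 0.36 ± 0.09 with shRNA-cFos and -0.34 ± 0.10 with shRNA-Ctrl in the authors' deposited tables, differed by 0.70 ± 0.13.

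To see at which condition the hairpins stood apart, the estimated levels of the shRNA tables, which were normalized separately, were set against each other after a shift of -0.43, the median log2 ratio of E0 levels over 12405 genes with a mean of at least 50. At E1 the median log2 ratio of shRNA-cFos over shRNA-Ctrl for the 36 genes was 0.21, with 3 of 36 below 0, computed from the authors' deposited tables. At E0 it was -0.25, with 29 of 36 below 0, again by the authors' deposited tables. The E0 ratio was the larger in size for 21 of the 36. Of 27 other density proteins described further on, 5 were below 0 at E1 and 19 at E0. Of 50 actin genes outside the list, 7 were below 0 at E1 and 36 at E0. The lean was thus not particular to the 36 genes, and the share over all or abundant genes was not computed. For Sipa1l3 the ratios were 0.43 at E1 and -0.77 at E0, for Arhgap39 0.46 and -0.68, for Synpo -0.098 and -0.68, and for Cnksr2 0.52 and -0.21, computed from the authors' deposited tables. These ratios carry no error and no test.

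**Figure D3:**
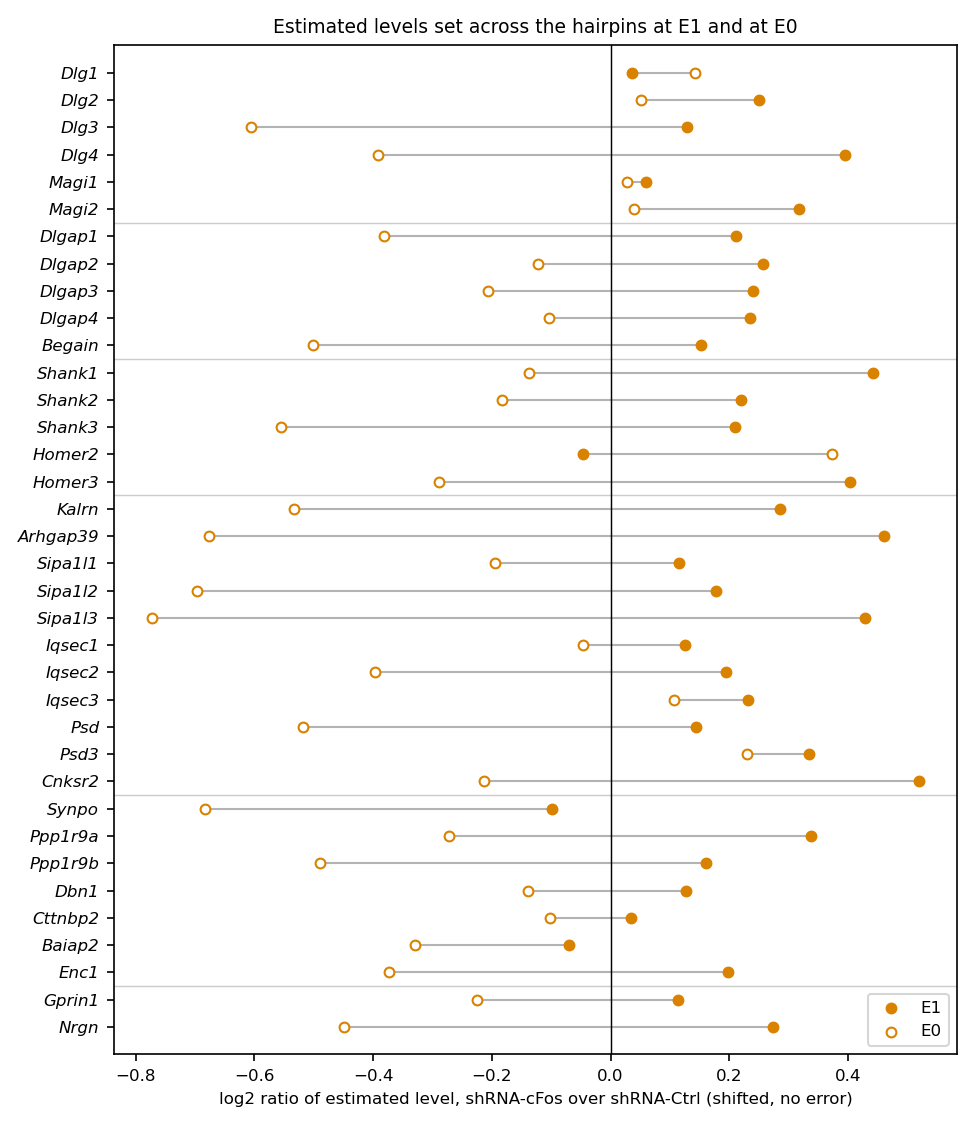
Log2 ratio of the estimated level with shRNA-cFos over that with shRNA-Ctrl (x axis, after the shift) at E1 (filled) and at E0 (open) for the 36 genes (y axis, grouped by role), computed from the authors' deposited tables without an error. At E0 29 of 36 lie left of 0, and at E1 33 lie right of it. Other density proteins and actin genes, not shown, leaned the same way.

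Markers of other cells and states moved with these results, and their part in them was not tested. All 6 interferon response genes examined fell with shRNA-cFos and rose with shRNA-Ctrl, with medians of -0.96 and 1.12 in the authors' deposited tables and of -1.15 and 1.91 without the shrinkage, as the levels are estimated. Their summed levels were estimated at 1719 normalized counts at E1 and 3630 at E0 with shRNA-cFos, against 4963 at E1 and 1819 at E0 with shRNA-Ctrl, from the authors' deposited tables. Of 4 reactive astrocyte markers 4 fell with shRNA-cFos and 3 rose with shRNA-Ctrl, with summed levels of 19472 at E1 and 28993 at E0 with shRNA-cFos, against 29872 at E1 and 23824 at E0 with shRNA-Ctrl, from the authors' deposited tables. Granule neuron markers ran with the postsynaptic genes: 4 of 6 rose with shRNA-cFos, and with shRNA-Ctrl 4 fell and 1 rose. Their summed levels were 12192 at E1 and 8583 at E0 with shRNA-cFos, against 15947 at E1 and 20047 at E0 with shRNA-Ctrl, from the authors' deposited tables. These sums are not shifted between the hairpins. After the shift, the granule neuron median log2 ratio of shRNA-cFos over shRNA-Ctrl was 0.12 at E1 and -0.67 at E0. Over all tested genes 16.3% rose and 11.7% fell with shRNA-cFos, and 16.8% rose and 16.2% fell with shRNA-Ctrl. No marker of these lists had a mean of 0 in any table.

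Overexpression of c-Fos set against EYFP, in other animals, gave lower levels for part of the lattice. In the authors' deposited table, 14 of the 36 genes were lower in cFos_OE than in EYFP_OE and 0 were higher, with a median log2 fold change of -0.12 (at an unadjusted p under 0.05, 1 was higher, Iqsec3; no other tool could be run). Over all 15827 tested genes 13.0% were called, 5.86% lower and 7.1% higher, with a median of -0.0067, and among the 4740 genes with a mean of at least 800 these shares were 11.4% and 8.73%. At an adjusted p under 0.01, 9 of the 36 were lower.

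**Figure D4:**
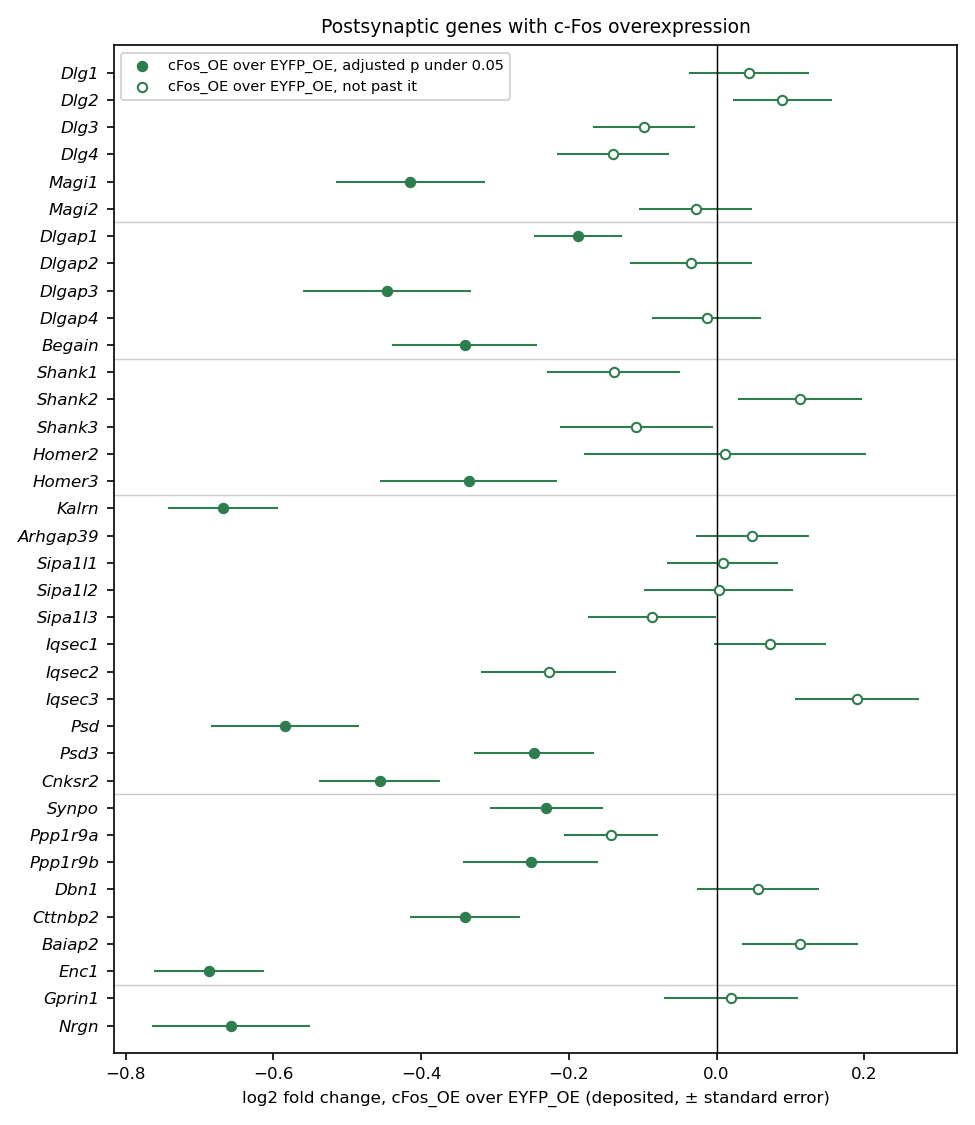
Deposited log2 fold change of cFos_OE over EYFP_OE (x axis, ± standard error) for the 36 genes (y axis, grouped by role). Filled points passed an adjusted p under 0.05 in the authors' deposited table; all 14 lie left of 0, with Enc1, Kalrn, Nrgn and Psd farthest.

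Enc1 had the largest change, with estimated levels of 15591 normalized counts in cFos_OE and 25532 in EYFP_OE by the authors' deposited table, where its log2 fold change was -0.69 ± 0.07 (DESeq2 adjusted p = 3.7e-18). Kalrn followed, with 7722 normalized counts in cFos_OE and 12479 in EYFP_OE by the authors' deposited table, where its log2 fold change was -0.67 ± 0.07 (DESeq2 adjusted p = 7e-17). Nrgn stood at 14615 in cFos_OE and 23896 in EYFP_OE by the authors' deposited table, with a log2 fold change of -0.66 ± 0.11. These 3 were lower by a fold of at least 1.5, as were 0.904% of all tested genes, and 0 of the 36 were higher by that fold, against 2.98%.

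Psd (-0.58 ± 0.10), Cnksr2 (-0.46 ± 0.08), Dlgap3 (-0.45 ± 0.11) and Magi1 (-0.41 ± 0.10) were lower as well in the authors' deposited table. So were Begain (-0.34 ± 0.10), Cttnbp2 (-0.34 ± 0.07), Homer3 (-0.34 ± 0.12), Psd3 (-0.25 ± 0.08), Ppp1r9b (-0.25 ± 0.09), Synpo (-0.23 ± 0.08) and Dlgap1 (-0.19 ± 0.06) in the authors' deposited table. The calls of Homer3 and Ppp1r9b did not pass without the filter on low counts (Benjamini-Hochberg adjusted p = 0.051 and 0.058).

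Several of the genes that differed most between the hairpins showed no call here. Sipa1l3 stood at -0.088 ± 0.09, Arhgap39 at 0.049 ± 0.08 and Sipa1l2 at 0.0032 ± 0.10 in the authors' deposited table. Dlg4 stood at -0.14 ± 0.08, Shank1 at -0.14 ± 0.09 and Shank3 at -0.11 ± 0.10 in the authors' deposited table. None of these 6 passed, nor did Gprin1 (0.019 ± 0.09), Baiap2 (0.11 ± 0.08) or Dbn1 (0.056 ± 0.08) in the authors' deposited table.

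Set beside the shRNA tables, with which overexpression shares no library, the 14 genes lower in cFos_OE divided as follows. Of them 10 rose at E1 with shRNA-cFos (Dlgap1, Begain, Homer3, Kalrn, Psd, Cnksr2, Synpo, Ppp1r9b, Enc1 and Nrgn), Magi1 fell there, and 3 did not pass; of all 920 genes lower in cFos_OE and tested with shRNA-cFos, 39.7% rose. With shRNA-Ctrl 8 of the 14 fell (Magi1, Dlgap1, Dlgap3, Homer3, Kalrn, Psd, Cnksr2 and Nrgn), Synpo rose, and 5 did not pass; of all 928 genes lower in cFos_OE, 33.9% fell there. Among the 22 listed genes with no call in cFos_OE, 13 rose with shRNA-cFos and 13 fell with shRNA-Ctrl. The overlap thus does not set the 14 apart from the rest of the list. Across the 36 genes, which are not independent replicates, Spearman's rank correlation was -0.17 between cFos_OE and shRNA-cFos and 0.24 between cFos_OE and shRNA-Ctrl, computed from the authors' deposited tables. Between shRNA-cFos and shRNA-Ctrl it was 0.18, and Pearson's r fell to 0.34 without Synpo, against 0.81 with it.

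Other markers moved with overexpression too, and their part was not tested. Over all tested genes 7.1% were higher and 5.86% lower in cFos_OE. All 4 reactive astrocyte markers were higher, with a median of 0.83 deposited and 1.22 without the shrinkage, and with summed levels of 35047 normalized counts in cFos_OE and 13281 in EYFP_OE, from the authors' deposited table. Granule neuron markers were lower for 2 of 6, with a median of -0.32 deposited and -0.36 without the shrinkage. Their fold changes were negative for 4 of the 6 and positive for 2. These markers summed to 14840 in cFos_OE and 16197 in EYFP_OE, from the authors' deposited table. Of 6 microglial markers 2 were higher, with sums of 6575 in cFos_OE and 5159 in EYFP_OE, from the authors' deposited table.

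Beyond the 36 genes, 27 other proteins of the postsynaptic density were examined. With shRNA-cFos 13 of their genes rose and Pick1 fell, by 0.34 ± 0.10 on the log2 scale, and with shRNA-Ctrl 4 rose and 10 fell, with medians of 0.27 and -0.09 in the authors' deposited tables. Over all tested genes 16.3% rose and 11.7% fell with shRNA-cFos, and 16.8% and 16.2% with shRNA-Ctrl. Among genes with a mean of at least 800 these shares were 34.2% and 7.59%, and 20.9% and 19.8%. Strong rises under both hairpins came from activity-induced genes: Grasp (2.44 ± 0.09 and 2.40 ± 0.11), Homer1 (2.86 ± 0.12 and 3.02 ± 0.18) and Arc (2.85 ± 0.26 and 4.41 ± 0.23), each given for shRNA-cFos and then for shRNA-Ctrl from the authors' deposited tables. Arc was strongly shrunken: without the prior its values were 4.54 with shRNA-cFos and 5.53 with shRNA-Ctrl, computed from the authors' deposited tables. Among the falls with shRNA-Ctrl, Lin7b (-0.63 ± 0.11), Sorbs2 (-0.36 ± 0.07) and Rgs14 (-0.74 ± 0.14) had the lowest adjusted p in the authors' deposited table. Arc and Pick1 had a lower response with shRNA-cFos, but the difference for Arc, -1.57 ± 0.35 computed from the authors' deposited tables, was -0.98 ± 0.50 without the prior and did not pass (Benjamini-Hochberg adjusted p = 0.15). The response was higher with shRNA-cFos for 14 of the 27, and Camk2a (0.83 ± 0.12), Camk2b (0.82 ± 0.12) and Anks1b (0.67 ± 0.12) had the lowest adjusted p among the higher ones, computed from the authors' deposited tables. In cFos_OE 12 of the 27 were lower, with the lowest adjusted p for Rph3a (-0.85 ± 0.10), Rgs14 (-0.89 ± 0.11) and Akap5 (-0.51 ± 0.08), and Grasp was higher (0.33 ± 0.10) in the authors' deposited table. Among genes with a mean of at least 800, 25.8% had a higher response with shRNA-cFos, and 11.4% were lower in cFos_OE.

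The wider actin machinery was followed through 50 genes outside the list. With shRNA-cFos 20 rose and Tiam2 fell, and with shRNA-Ctrl 13 rose and 8 fell, with medians of 0.14 and 0.04 in the authors' deposited tables. Among genes with a mean of at least 800, 34.2% rose and 7.59% fell with shRNA-cFos. With shRNA-Ctrl 20.9% of such genes rose and 19.8% fell, so these counts lie near the shares of abundant genes. Actg1 (0.73 ± 0.06) and Arpc2 (0.82 ± 0.08) were among the rises with shRNA-cFos in the authors' deposited table. With shRNA-Ctrl the rises with the lowest adjusted p were those of Actb (0.51 ± 0.06), Actg1 (0.48 ± 0.06) and Dstn (0.54 ± 0.07), and the falls those of Tiam2 (-1.41 ± 0.12), Add2 (-0.61 ± 0.09) and Tiam1 (-0.40 ± 0.07) in the authors' deposited table. The response was higher with shRNA-cFos for 18 of the 50, among them Actr3 (0.76 ± 0.12) and Cyfip2 (0.66 ± 0.11), and lower for Srgap2 (-0.45 ± 0.12) and Cfl2 (-0.52 ± 0.15), computed from the authors' deposited tables. In cFos_OE 7 were lower, among them Git1 (-0.33 ± 0.08) and Nckap1 (-0.24 ± 0.06), and Pak3 (0.36 ± 0.08) and Limk1 (0.42 ± 0.09) were higher in the authors' deposited table. Of abundant genes, with a mean of at least 800, 11.4% were lower in cFos_OE, 8.73% were higher, and 25.8% had a higher response with shRNA-cFos. Median differences between the hairpins were 0.56 for the 36 genes, 0.32 for the other density proteins and 0.14 for the actin machinery, given as descriptions with no test between the lists. They were larger for granule neuron markers (0.79, with 6 of 6 called higher) and pyramidal markers (0.66). The pyramidal markers were split, with 3 of 5 called higher and 1 called lower. For interneuron markers the median was 0.16 and for oligodendrocyte markers 0.079. The other marker lists, of astrocytes, reactive astrocytes, microglia, endothelium and the interferon response, had negative medians, but not alike. Called lower were 6 of 6 interferon response genes, 4 of 4 reactive astrocyte, 3 of 4 endothelial and 2 of 6 microglial markers. Of 5 astrocyte markers, with a median of -0.11, 1 was called higher and 1 lower.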

How the data were processed

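RNA-seq libraries of 18 mice were grouped by their titles into 6 groups of 3. Per the submitters' processing notes, TopHat2, DESeq2 and the build mm9 were used, with no versions given. The counting tool, annotation and strand setting were stated nowhere in the material used, so reads of overlapping genes cannot be told apart. Per the file headers, each deposited table gives the mean normalized count, a signal value of counts over size factors, and a log2 fold change with its standard error. Their ratio is the score that the authors deposited as a Wald statistic, and the authors' p-value is its 2-sided normal p, adjusted by Benjamini-Hochberg over genes above a minimum mean (the smallest mean tested was 12.2 for shRNA-cFos, 5.40 for shRNA-Ctrl and 3.64 for overexpression). The tables hold 0 columns per library. Fold changes in the tables are shrunken, as by a normal prior around 0 whose standard deviation was taken as 0.53 for shRNA-cFos, 0.59 for shRNA-Ctrl and 0.41 for overexpression. It was not given but inferred from the largest standard error of each table. A standard error allows more than 1 solution, and the one with less shrinkage was used. For errors near the largest, as of Fos in cFos_OE and Arc with shRNA-cFos, the value without the prior is therefore uncertain. Removing this prior moved the log2 fold changes of the 36 genes by 0.11 at most, but those of some other genes by far more. The mean normalized count and the fold change with the prior removed gave the group levels. They rest on the model and carry no error.

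In the overexpression data, 27 gene names had become dates and were left out. Genes were called at an adjusted p under 0.05. The difference of responses was set against a standard error combined from both tables in quadrature, and its 2-sided normal p was adjusted over 14386 genes, and the step was tested on simulated data. The arms share no library. The 36 genes, their roles and all lists were chosen with earlier results of these data known. Named genes are all 36, Fos, and, in the lists of other density proteins and actin genes, up to 3 per direction by adjusted p in each comparison, of which 1 gene is not reported here; markers of cell types are given by counts. Alternatives were removal of the prior, centring, filters, an adjusted p of 0.01 and a fold of 1.5. Python 3.11.15, pandas 2.3.3, SciPy 1.17.1 and matplotlib 3.10.9 were used.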

Additional observations from a re-analysis of the deposited data

Results flagged for a closer look

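A difference between the hairpins in the response at E1, tested as shRNA-cFos minus shRNA-Ctrl, marked 26 of the 36 genes; values are log2 differences computed from the authors' deposited tables. Among kinase-like scaffolds and their binders these were 0.71 for Dlg3, 0.77 for Dlg4, 0.58 for Dlgap1, 0.37 for Dlgap2, 0.43 for Dlgap3, 0.33 for Dlgap4 and 0.63 for Begain. Shank1 differed by 0.56, Shank2 by 0.39, Shank3 by 0.75, Homer3 by 0.67 and Homer2 by -0.41. For GTPase regulators the values were 0.80 for Kalrn, 1.10 for Arhgap39, 0.31 for Sipa1l1, 0.84 for Sipa1l2, 1.17 for Sipa1l3, 0.58 for Iqsec2, 0.65 for Psd and 0.70 for Cnksr2. Actin binders gave 0.59 for Synpo, 0.60 for Ppp1r9a, 0.63 for Ppp1r9b and 0.56 for Enc1, and the remaining genes 0.33 for Gprin1 and 0.70 for Nrgn.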

How the results depend on the processing

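No paired analysis was possible because the tables hold no values per library; for the same reason no replicate could be left out. Removing the prior and requiring a mean of at least 50 changed no call of the 36 genes in any comparison, and centring on all tested genes lost 1, Ppp1r9b in cFos_OE. No filter on low counts lost 5: Shank3, Homer3 and Sipa1l1 with shRNA-Ctrl, Homer3 and Ppp1r9b in cFos_OE. A fold of at least 1.5 left 4 genes called with shRNA-cFos (4 higher, 0 lower), 5 with shRNA-Ctrl (3 lower), 3 lower in cFos_OE and 15 for the difference (15 higher, 0 lower). An adjusted p under 0.01 left 13 lower with shRNA-Ctrl and 9 called, all 9 lower, in cFos_OE. Centring on genes with a mean of at least 800, chosen after seeing the data, gave 4 lower and a median of 0.18 with shRNA-cFos, since this shift is 0.11. It lost 16 calls, 7 with shRNA-cFos and 4 of the difference, named above, and the same 5 as without the filter, and gained 2, Homer2 and Dbn1 as lower with shRNA-cFos. It also turned the sign of 6 values that were not called: Dlg2 (-0.026), Dlgap3 (-0.060), Iqsec1 (-0.018) and Iqsec2 (-0.036) with shRNA-cFos, Dlgap4 (0.0082) in cFos_OE and Magi1 (-0.067) for the difference. Depth is unknown, so the standard errors alone bound what could be detected.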

Other observations

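Markers of further cell types, counted in the same tables, did not all move alike. Over all tested genes 16.3% rose and 11.7% fell with shRNA-cFos, and 16.8% rose and 16.2% fell with shRNA-Ctrl. In cFos_OE 7.1% of all tested genes were higher and 5.86% lower. Interneuron markers rose for 3 of 6 with shRNA-cFos and 5 of 6 with shRNA-Ctrl, and 1 was lower in cFos_OE, in the authors' deposited tables. Of 5 pyramidal markers 3 rose and 1 fell with shRNA-cFos and 1 fell with shRNA-Ctrl in the authors' deposited tables. Astrocyte markers rose for 2 of 5 with shRNA-cFos and 1 of 5 with shRNA-Ctrl, with 1 higher and 1 lower in cFos_OE, in the authors' deposited tables. Microglial markers rose for 1 of 6 and fell for 2 with shRNA-cFos, and rose for 5 with shRNA-Ctrl, in the authors' deposited tables. Of 4 endothelial markers 1 rose and 1 fell with shRNA-cFos, 2 rose with shRNA-Ctrl and 3 were lower in cFos_OE in the authors' deposited tables. Oligodendrocyte markers had medians of -0.048 with shRNA-cFos, -0.13 with shRNA-Ctrl and -0.32 in cFos_OE (-0.51 without the shrinkage of the fold changes), and DESeq2 called 0 of 5 in each of the authors' deposited tables (0 at an unadjusted p under 0.05). Of 6 interferon response genes 1 was higher in cFos_OE, with a median of 0.37 in the authors' deposited table and 0.63 without that shrinkage.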
